A study of Mus musculus with 27 samples.

Results

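Messenger RNA levels of 8 genes of chemokine signalling and inflammation were followed in haematopoietic stem and progenitor cells (HSPCs) of the mouse from mid-gestation to adult age. The genes were the chemokine ligands Ccl3, Ccl4, Cxcl2 and Ccl9, the chemokine receptors Cxcr4, Ccr9 and Ccr2, and the inflammasome sensor Nlrp3. They were found by their symbols and are 8 of 24418 entries of the expression table, and all 8 were among the 13349 genes that reached 1 FPKM (fragments per kilobase of transcript and per unit of library size) in at least 3 libraries. The genes were chosen by their FPKM levels and differences between groups in these libraries, so their levels and differences are a description, given without a test.

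Bulk RNA sequencing covered 27 libraries in 9 groups of 3, all from C57BL/6 mice with no treatment named in the labels. The groups are E12.5 PL, E12.5 FL and E16.5 FL, named by embryonic day, Perinatal BM, and 1w, 3w, 4w, 6w and 8w BM, at 1, 3, 4, 6 and 8 weeks of age. FL is read here as fetal liver and BM as bone marrow, while the labels do not say what PL stands for. The surface markers of the purification, the sex of the mice and whether the 3 libraries of a group come from separate animals are not known here, so p-values measure the spread between these libraries, which may be technical.

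The FPKM of a library summed to between 519810 and 763033. Relative sequencing depth was estimated from the most frequent ratio of low values to those of a single library. It lay between 0.68 and 1.62 times the median over libraries. The estimate is rough, since that ratio rested on as few as 11 of 1428 genes, in E12.5 PL replicate 3. A list of 12 HSPC markers summed to at least 898 FPKM in every library outside E12.5 PL and to between 471 and 496 FPKM in E12.5 PL. In E12.5 PL, 12 pan-leukocyte markers summed to 222 to 400 FPKM, against 1410 to 2150 FPKM elsewhere, and 12 trophoblast markers summed to 3200 to 3930 FPKM, against at most 108 FPKM elsewhere. The E12.5 PL libraries therefore stood apart, with 9 of the 12 trophoblast markers and all 12 stromal markers at a mean of 1 FPKM or more. All 12 endothelial markers reached that mean too, but so did 9 to 11 of them in the other groups. The endothelial sums differed more, at 1140 to 1510 FPKM in E12.5 PL, against at most 357 FPKM elsewhere. The 3 Perinatal BM libraries also stood apart, with 12 mast cell and basophil markers summing to 1550 to 4150 FPKM, against at most 191 FPKM elsewhere. In bulk RNA, fewer cells of a type and less RNA per cell cannot be told apart.

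Chemokines are small secreted proteins that guide and retain cells by engaging G protein-coupled receptors on their surface. In bone marrow, stromal Cxcl12 holds stem and progenitor cells in place through Cxcr4, Ccr2 and its ligand Ccl2 govern the exit of monocytes and their precursors into blood, and Ccr9 with its ligand Ccl25 is known for bringing lymphoid progenitors to the thymus. Ccl3, known as an inhibitor of the proliferation of primitive progenitors, binds Ccr1, as does Ccl9, Ccl4 is a close relative of Ccl3, and Cxcl2 attracts neutrophils through Cxcr2. Nlrp3 senses damage and microbial signals and, with the adaptor Pycard and the protease Casp1, forms the inflammasome that matures interleukin-1 beta and interleukin-18. Many of these genes are textbook targets of the transcription factor NF-kB.

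The ligand genes other than Cxcl2 lie, with Nlrp3, on chromosome 11 of the GRCm38 build (GENCODE M21). Ccl3 (ENSMUSG00000000982.5) is at chr11:83647844-83649355 on the minus strand and Ccl4 (ENSMUSG00000018930.3) at chr11:83662584-83664683 on the plus strand. Ccl9 (ENSMUSG00000019122.8) is at chr11:83572919-83578636 on the minus strand, in the same cluster of ligand genes, and Nlrp3 (ENSMUSG00000032691.14) is at chr11:59541568-59566956 on the plus strand. Cxcl2 (ENSMUSG00000058427.10) is at chr5:90903871-90905938 on the plus strand. The receptors Ccr9 (ENSMUSG00000029530.16) and Ccr2 (ENSMUSG00000049103.14) are at chr9:123678439-123784330 and chr9:124101950-124113557 on the plus strand, and Cxcr4 (ENSMUSG00000045382.6) is at chr1:128588199-128592293 on the minus strand. The span that RefSeq lists for Ccl4 on the same build begins inside Ccl3 on the opposite strand. Whether the counting used strand is not known here, so reads of these 2 genes cannot be fully told apart and their values carry that uncertainty.

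RefSeq promoters (build GRCm38.p6) were matched for 7 of the 8 genes. The 250 bases before the transcription start are printed for Cxcl2, Nlrp3, Ccl9 and Cxcr4, whose windows held a match to at least 1 of the motifs searched, and for Ccl3, whose window held none. Both strands of a window of 300 bases, the 250 printed and 50 after the start, were searched for the kappaB consensus (the binding motif of NF-kB), AP-1 (TGANTCA), CRE (TGACGTCA) and the TATA box (TATAAA), and matches are in capitals.
Cxcl2 (chr5:90903649-90903898, plus strand): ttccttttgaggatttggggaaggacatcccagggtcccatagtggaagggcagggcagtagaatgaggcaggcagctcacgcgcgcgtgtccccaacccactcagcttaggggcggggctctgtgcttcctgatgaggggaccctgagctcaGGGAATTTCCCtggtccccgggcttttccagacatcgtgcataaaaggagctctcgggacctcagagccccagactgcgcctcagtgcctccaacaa
Nlrp3 (chr11:59541319-59541568, plus strand): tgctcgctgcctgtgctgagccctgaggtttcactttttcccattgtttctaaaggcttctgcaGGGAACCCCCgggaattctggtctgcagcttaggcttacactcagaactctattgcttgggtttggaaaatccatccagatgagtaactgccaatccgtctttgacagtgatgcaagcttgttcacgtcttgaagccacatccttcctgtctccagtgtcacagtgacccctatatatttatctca
Ccl3 (chr11:83649379-83649628, minus strand): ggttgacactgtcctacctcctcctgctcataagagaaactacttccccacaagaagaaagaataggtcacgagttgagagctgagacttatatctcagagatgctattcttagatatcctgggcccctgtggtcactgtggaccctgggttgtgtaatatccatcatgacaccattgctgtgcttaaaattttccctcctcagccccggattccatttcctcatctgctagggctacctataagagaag
Ccl9 (chr11:83578637-83578886, minus strand): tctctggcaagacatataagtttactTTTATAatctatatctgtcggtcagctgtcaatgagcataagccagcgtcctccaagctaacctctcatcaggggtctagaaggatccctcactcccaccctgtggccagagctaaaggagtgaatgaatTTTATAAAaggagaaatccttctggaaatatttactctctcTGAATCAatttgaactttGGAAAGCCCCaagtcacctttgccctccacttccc
Cxcr4 (chr1:128592300-128592549, minus strand): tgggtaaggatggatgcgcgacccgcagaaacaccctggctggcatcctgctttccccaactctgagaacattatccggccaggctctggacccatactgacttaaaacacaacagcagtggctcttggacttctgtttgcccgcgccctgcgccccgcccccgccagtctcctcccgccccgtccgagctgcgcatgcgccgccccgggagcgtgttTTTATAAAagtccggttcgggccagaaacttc

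The Cxcl2 window held 2 overlapping kappaB matches, from base -97 to -88 on the gene's strand and from -96 to -87 on the other, where -1 is the base before the start. The window of Nlrp3 held a kappaB match at -186 to -177 that reads on both strands, and a second Nlrp3 promoter of RefSeq held none of the motifs. In Ccl9 the window held a kappaB match at -35 to -26 on the other strand, an AP-1 match at -53 to -47 and 3 TATA box matches, 2 of which overlap between -94 and -87. Cxcr4 held 2 overlapping TATA box matches between -32 and -25, and the windows of Ccl3, Ccr9 and Ccr2 held none of the 4 motifs. Among 32851 RefSeq promoters, windows of 300 bases held a kappaB match in 8.46%, AP-1 in 7.81%, CRE in 1.79% and the TATA box in 13.6%. A match describes letters and is not evidence of a bound site.

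Ccl3 was the most abundant of the 8 transcripts in 6 of the 9 groups per unit of length and had its highest level in fetal liver. It stood at 11.6, 9.23 and 12.3 FPKM in the 3 E12.5 PL libraries, at 256, 304 and 222 FPKM in E12.5 FL and at 208, 218 and 235 FPKM in E16.5 FL. In bone marrow its level was 76.6, 82.9 and 89.7 FPKM in Perinatal BM, whose exact age the labels do not give, and 34, 41.6 and 38.8 FPKM in 1w BM. The level in 1w BM was the lowest of the bone marrow groups with no overlap. It then stood at 124, 139 and 135 FPKM in 3w BM, 93.3, 88.3 and 123 FPKM in 4w BM, 251, 245 and 220 FPKM in 6w BM and 106, 94.3 and 159 FPKM in 8w BM. The libraries of E12.5 FL (mean 261 ± 41.2 FPKM, SD, n = 3), 6w BM (238 ± 16.2) and E16.5 FL (220 ± 13.9) overlapped with their neighbours in this order, and those of the next group, 3w BM (133 ± 7.94), lay below all of them.

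Ccl4, the neighbour of Ccl3, took a similar course with a deeper trough. It stood at 6.95, 4.87 and 8.6 FPKM in E12.5 PL, at 124, 167 and 106 FPKM in E12.5 FL and at 197, 174 and 179 FPKM in E16.5 FL, its highest group. In Perinatal BM it was at 31.7, 39.3 and 50.7 FPKM and in 1w BM at 14.4, 16.6 and 9.69 FPKM, again below every other bone marrow library. The level was 114, 138 and 122 FPKM in 3w BM and 115, 114 and 128 FPKM in 4w BM, which overlapped. It was 157, 166 and 144 FPKM in 6w BM and 41.1, 38.6 and 108 FPKM in 8w BM, where replicate 3 lay far above the other 2 libraries. E16.5 FL (184 ± 12 FPKM) lay above all 6w BM libraries (155 ± 11.1), while 6w BM, E12.5 FL, 3w BM and 4w BM overlapped in turn.

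The ratio of Ccl3 to Ccl4 differed between groups. It was highest in 1w BM, at 2.35, 2.51 and 4.01, and lowest in 4w BM, at 0.809, 0.776 and 0.964, the only group in which every library had more Ccl4 than Ccl3 per unit of length. The mean ratio was 2 ± 0.152 in E12.5 FL, 1.21 ± 0.135 in E16.5 FL, 1.07 ± 0.0532 in 3w BM, 1.54 ± 0.0595 in 6w BM and 2.16 ± 0.601 in 8w BM (SD, n = 3). As a description over the 24 libraries outside E12.5 PL, the log2(FPKM + 1) levels of Ccl3 and Ccl4 correlated at r = 0.9, and after the group means were taken out they correlated at r = 0.81 over 27 libraries. These points share groups and the table's normalisation.

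Cxcl2 spread widely within Perinatal BM, 4w BM, 6w BM and 8w BM, while its 3w BM libraries lay close together (53.8 ± 2.67 FPKM, SD, n = 3). It stood at 20.4, 19.7 and 24.6 FPKM in E12.5 PL, at 26.5, 35 and 22.8 FPKM in E12.5 FL and at 18.2, 25.8 and 30.5 FPKM in E16.5 FL. The fetal groups overlapped, and Perinatal BM, at 38.2, 93.9 and 35.8 FPKM, lay above both FL groups. It was at 22.9, 38.3 and 23.4 FPKM in 1w BM, 56.8, 52 and 52.4 FPKM in 3w BM and 34, 52.7 and 22.5 FPKM in 4w BM. In 6w BM it reached 158, 118 and 54 FPKM, the highest mean (110 ± 52.4), and in 8w BM it stood at 9.91, 1.99 and 27.6 FPKM, the lowest mean (13.2 ± 13.1). All neighbours in the order of Cxcl2 levels overlapped, yet the 6w BM and 8w BM libraries did not.

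Outside E12.5 PL the group means of Ccl9 spanned the narrowest range of the 4 ligands, from 21.1 to 56.5 FPKM. Its libraries stood at 3.85, 2.02 and 2.38 FPKM in E12.5 PL, at 27.7, 34.6 and 27 FPKM in E12.5 FL and at 21.1, 25 and 17.2 FPKM in E16.5 FL. Every bone marrow library lay above every E16.5 FL library, with 64.7, 54.5 and 36.7 FPKM in Perinatal BM and 31.8, 37.7 and 45.2 FPKM in 1w BM. It was at 37.3, 37.2 and 34.5 FPKM in 3w BM, 34, 48.3 and 39.3 FPKM in 4w BM, 60.1, 43.1 and 42.8 FPKM in 6w BM and 54.7, 55.3 and 59.4 FPKM in 8w BM. From 8w BM (56.5 ± 2.54 FPKM) down to 3w BM (36.3 ± 1.58) each group overlapped with the next.

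**Figure D1:**
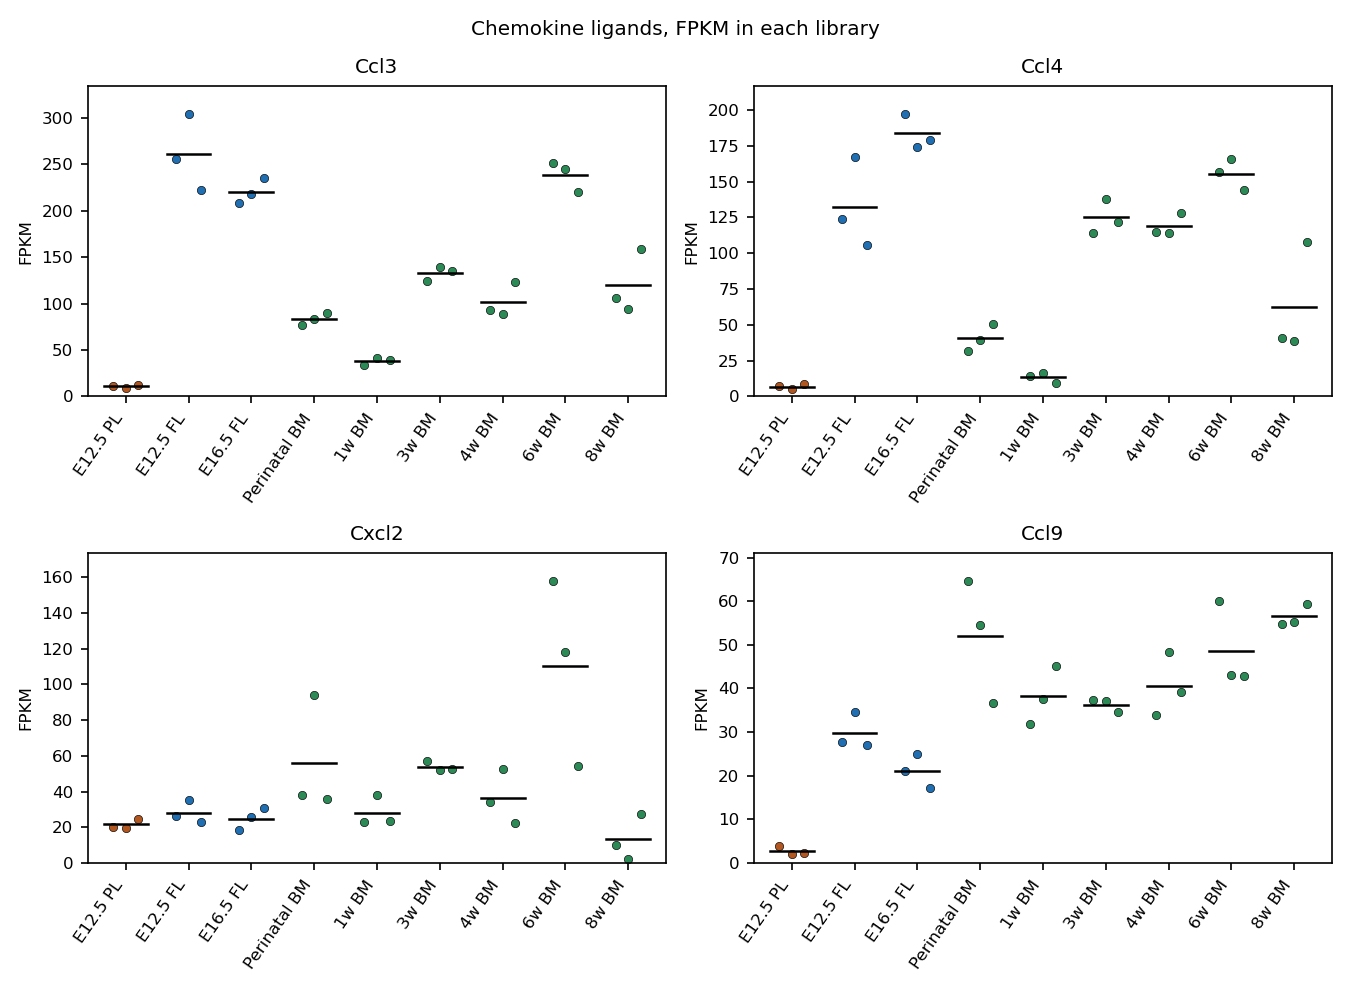
FPKM of Ccl3, Ccl4, Cxcl2 and Ccl9 (y axes, linear, from 0) in the 9 groups (x axes). Points are the 3 libraries of a group (orange E12.5 PL, blue fetal liver, green bone marrow) and the bar is their mean. Ccl3 and Ccl4 are low in 1w BM, at 38.1 and 13.6 FPKM on average, and Cxcl2 is highest in 6w BM, at 110 FPKM.

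Of the 3 receptors, Cxcr4 was the most abundant in every group, lower in E12.5 FL than in any later group, and highest at 3 weeks. It stood at 15.6 and 8.41 FPKM in replicates 1 and 2 of E12.5 PL, with replicate 3 between them, at 11, 11.3 and 9.13 FPKM in E12.5 FL and at 39.7, 42.4 and 22.1 FPKM in E16.5 FL. The E16.5 FL libraries lay above all E12.5 FL libraries, and Perinatal BM, at 66.8, 49 and 60.9 FPKM, lay above E16.5 FL. In 1w BM it was at 35.6, 52.4 and 46.6 FPKM and in 3w BM at 130, 130 and 96 FPKM. It was at 48.8, 57.3 and 52.2 FPKM in 4w BM, 59.6, 99.6 and 56.9 FPKM in 6w BM and 85.3, 74 and 57.9 FPKM in 8w BM. The mean of 3w BM (119 ± 19.6 FPKM, SD, n = 3) was the highest, and its libraries did not overlap with those of 8w BM (72.4 ± 13.8), the next in order, although replicate 2 of 6w BM, at 99.6 FPKM, lay within the range of 3w BM.

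Ccr9 was a receptor of the fetal and perinatal groups. It stood at 1.02, 0.464 and 0.684 FPKM in E12.5 PL, at 6.07, 5.58 and 5.16 FPKM in E12.5 FL and at 10.4, 10.6 and 9.68 FPKM in E16.5 FL. The 3 Perinatal BM libraries were split, at 5.03, 4.39 and 13 FPKM, with replicate 3 above every E16.5 FL library and the others below. From 1 week on no library exceeded 2.44 FPKM, with 2.44, 2.02 and 1.37 FPKM in 1w BM, 1.85, 2.18 and 1.34 FPKM in 3w BM and 2.4, 1.15 and 1.87 FPKM in 4w BM. It was at 0.506, 0.962 and 0.827 FPKM in 6w BM and 0.922, 0.189 and 0.602 FPKM in 8w BM, near the level of E12.5 PL.

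Ccr2 took the opposite direction, with its highest level in adult marrow. It stood at 0.646, 0.272 and 0.455 FPKM in E12.5 PL, at 2.72, 2.79 and 2.97 FPKM in E12.5 FL and at 4.77, 6.01 and 3.62 FPKM in E16.5 FL. From Perinatal BM (6.63, 7.89 and 4.99 FPKM) to 1w BM (6.21, 6.16 and 11 FPKM) and 3w BM (8.54, 7.32 and 8.29 FPKM) the groups overlapped. It was at 2.1, 5.45 and 3.94 FPKM in 4w BM, below all 3w BM libraries, at 11.5, 4.2 and 5.28 FPKM in 6w BM and at 12.8, 12.6 and 14.3 FPKM in 8w BM, above every other library. The 12 monocyte and macrophage markers summed to 345 to 425 FPKM in 8w BM, against 94.7 to 232 FPKM in 4w BM and 77.2 to 126 FPKM in E16.5 FL, with 11, 10 and 10 of the 12 at a mean of 1 FPKM or more. Their part in the Ccr2 levels was not tested.

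Nlrp3 was low in the groups named by embryonic day, in 1w BM and in 4w BM, and had peaks at 3 and 6 weeks. It stood at 1.06, 0.385 and 0.287 FPKM in E12.5 PL, at 0.524, 0.747 and 0.59 FPKM in E12.5 FL and at 1.85, 1.5 and 1.35 FPKM in E16.5 FL. It was at 4.07, 3.72 and 3.52 FPKM in Perinatal BM, 1.03, 2.2 and 1.95 FPKM in 1w BM and 7.8, 9.55 and 6.75 FPKM in 3w BM. The level was lower in 4w BM, at 1.73, 2.81 and 0.387 FPKM, and highest in 6w BM, at 12, 20.8 and 9.54 FPKM. In 8w BM replicates 1 and 2 were at 1.63 and 1.13 FPKM and replicate 3 at 9.35 FPKM, just below the lowest 6w BM library.

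**Figure D2:**
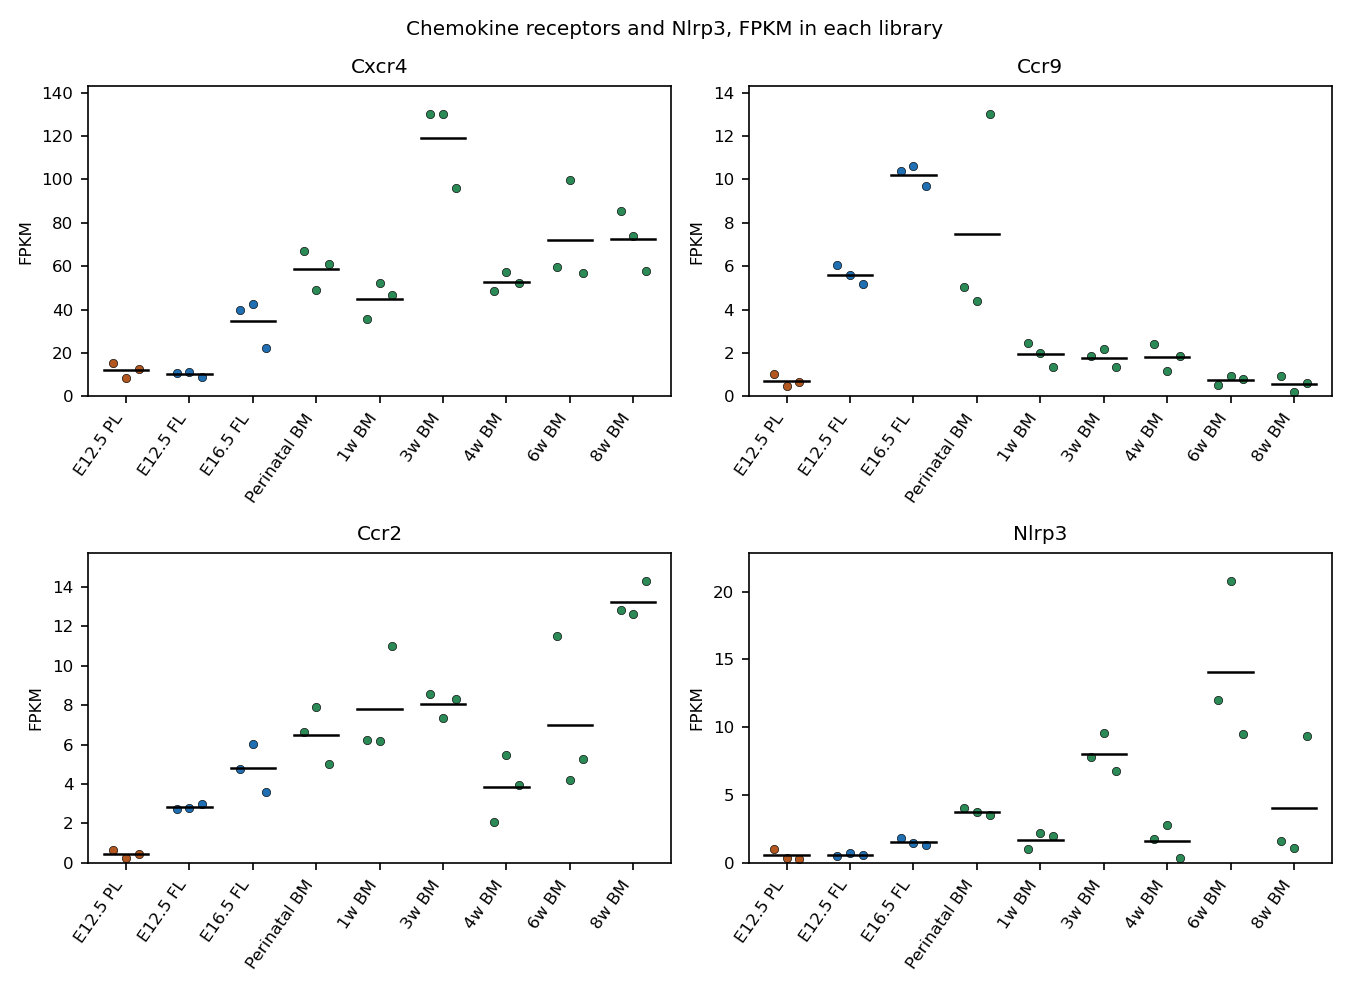
FPKM of Cxcr4, Ccr9, Ccr2 and Nlrp3 (y axes, linear, from 0) in the 9 groups (x axes), with the 3 libraries as points and their mean as a bar, coloured as E12.5 PL (orange), fetal liver (blue) and bone marrow (green). Cxcr4 peaks in 3w BM at a mean of 119 FPKM, Ccr9 in E16.5 FL at 10.2 FPKM, Ccr2 in 8w BM at 13.2 FPKM and Nlrp3 in 6w BM at 14.1 FPKM.

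The 4 ligands made up most of the summed FPKM of all 40 ligand genes examined outside E12.5 PL. Their share was 95.7 ± 0.849% in E12.5 FL, 93.8 ± 0.786% in E16.5 FL, 86.3 ± 1.64% in Perinatal BM, 79.6 ± 1.88% in 1w BM and 70.7 ± 6.94% in 8w BM (SD, n = 3). In E12.5 PL the share was 18.3 ± 1.28%, and Pf4, Cxcl10 and Cxcl1 were the leading ligand transcripts there. Cxcr4, Ccr9 and Ccr2 together made up 45.5 ± 0.702% of the summed FPKM of 24 receptor genes in E12.5 FL, 71.1 ± 8.31% in E16.5 FL, 80.1 ± 2.43% in 3w BM and 77.6 ± 4.37% in 8w BM.

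Several receptors and ligands that partner these genes had low levels from E16.5 FL on. Ccr1, the receptor of Ccl3 and Ccl9, had group means between 0.131 and 0.773 FPKM. Cxcr2, the receptor of Cxcl2, was at 5.78 ± 0.998 FPKM in E12.5 FL and between 1.11 and 2.41 FPKM in the later groups. Cxcl12, the ligand of Cxcr4, was at 15.9 ± 6.53 FPKM in E12.5 PL and at most 2.73 ± 0.399 FPKM (4w BM) elsewhere, and Ccl2, the ligand of Ccr2, was at 7.16 ± 4.04 FPKM in E12.5 PL and at most 2.01 ± 1.25 FPKM elsewhere. Ccl25, the ligand of Ccr9, lay between 0.983 and 3.85 FPKM in all groups.

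Each pair of successive groups was then compared, and differences are given on the log2(FPKM + 1) scale, on which folds of low genes are understated. Successive comparisons share the libraries of 1 group, so a library that is high in that group enters both. Genes outside the 8 were tested with limma across 13349 genes (Benjamini-Hochberg adjustment, threshold 0.05), and the lists were 36 other ligands (14 tested), 21 other receptors (11 tested), 19 inflammasome and interleukin-1 genes (16 tested), 18 NF-kB targets, 18 genes of chemokine receptor signalling and 16 immediate-early genes, which respond to stimulation within minutes. The lists were chosen with earlier results of these data known. Their counts and medians are therefore a description and no independent support for the levels of the 8 genes.

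E12.5 FL was compared with E12.5 PL, a group of the same embryonic day whose cell type marker sums differ widely from those of FL, as given above. The comparison therefore cannot separate differences within HSPCs from differences in cell content. Libraries did not overlap for 5 of the 8 genes, all higher in FL, where 76.3% of all genes tested did not overlap in either direction and 34.4% were higher in FL. Ccl3 was higher by 4.44 and Ccl4 by 4.09 on the log2 scale, Ccl9 by 3.06, Ccr9 by 1.95 and Ccr2 by 1.4, while the libraries of Cxcl2 (0.35), Nlrp3 (0.07) and Cxcr4 (-0.17) overlapped. Of the other ligands 1 rose and 12 fell in FL against PL, with a median log2 difference of -1.86, against -0.06 over all genes tested, and limma called 74.2% of all genes in either direction. Cxcl1, a neutrophil attractant, fell by 4.36 (limma adjusted p = 1.62e-14) and Cxcl12 fell by 3.82 (limma adjusted p = 1.78e-13). Of the other receptors 3 rose and 4 fell, among them Cxcr3, higher by 1.94 (limma adjusted p = 1.25e-05), and Ackr3, a scavenger of Cxcl12, lower with a log2 difference of -4.39 (limma adjusted p = 6.39e-16). The count of 20 genes called in these 2 lists was 13 without E12.5 PL replicate 3.

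Genes that carry signals from chemokine receptors were mostly higher in FL as well. Of 18 such genes 15 rose and 3 fell (median 1.55), with Rac2, a GTPase of migrating leukocytes, higher by 3.04 (limma adjusted p = 8.18e-17) and Pik3cg, a kinase downstream of these receptors, by 2.95 (limma adjusted p = 7.68e-15). Of 18 NF-kB targets 4 rose and 10 fell (median -0.68), with Tnf higher by 2.98 (limma adjusted p = 1.72e-10), and of 16 immediate-early genes 1 rose and 11 fell (median -1.18). Pycard rose by 2.34 (limma adjusted p = 6.09e-14), among 9 of 16 inflammasome and interleukin-1 genes that rose and 1 that fell. With 74.2% of all genes called in this comparison, the counts called in these last 3 lists are near or below the background and say little about the lists. The trophoblast, stromal and leukocyte marker sums given above move with this comparison: stromal markers summed to 5410 to 12600 FPKM in E12.5 PL and 18.7 to 22 FPKM in E12.5 FL. Their part in these differences was not tested.

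Between E12.5 FL and E16.5 FL, which asks what changes as fetal liver HSPCs mature, 6 of the 8 genes did not overlap, against 52.9% of all genes tested. Ccl4 (0.5), Nlrp3 (0.66), Ccr9 (0.77), Ccr2 (0.58) and Cxcr4 (1.59) were higher at E16.5 and Ccl9 (-0.49) was lower, while Ccl3 (-0.23) and Cxcl2 (-0.18) overlapped. Few other chemokine genes passed the test (3 of 25, with 34.6% of all genes called). Cxcl10, an interferon-induced ligand, rose by 1.4 (limma adjusted p = 0.00939) and the atypical receptor Ccrl2 by 1.01 (limma adjusted p = 0.00201), and Cxcr2 was lower, with a log2 difference of -1.69 (limma adjusted p = 2.45e-06). Of the inflammasome and interleukin-1 genes 7 rose and 1 fell. Casp1, the protease that Nlrp3 recruits, rose by 1.78 (limma adjusted p = 5.87e-08) and Pycard fell by 0.59 (limma adjusted p = 0.00107). Without replicate 1 of either group 5 of these genes were called. Of the NF-kB targets 9 rose and 1 fell (median 0.53, against 0.01 over all genes), with Relb higher by 1.23 (limma adjusted p = 0.000143) and Tnf lower, with a log2 difference of -1.24 (limma adjusted p = 0.000589). Of the immediate-early genes 8 rose and 1 fell (median 0.84).

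Perinatal BM was compared with E16.5 FL, across the move of HSPCs from liver to marrow. Libraries of 6 of the 8 genes did not overlap, against 38% of all genes tested. Ccl9 (1.24), Cxcl2 (1.03), Nlrp3 (0.9) and Cxcr4 (0.79) were higher in Perinatal BM, and Ccl3 (-1.4) and Ccl4 (-2.17) were lower. Without Perinatal BM replicate 2 the difference of Cxcl2 was 0.59. Of the other ligands 4 rose and 1 fell and of the other receptors 3 rose, with 28.4% of all genes called. Ccr8, the receptor of Ccl1, rose by 3.25 (limma adjusted p = 1.97e-10), to 9.08, 5.05 and 16.4 FPKM, and no library of another group exceeded 0.323 FPKM. Cxcl10 was lower, with a log2 difference of -2.35 (limma adjusted p = 0.000142). Of these 8 genes 5 were called without Perinatal BM replicate 1 and 5 without replicate 2. Il1r1, the interleukin-1 receptor, rose by 1.33 (limma adjusted p = 9.85e-07) and Casp1 by 0.97 (limma adjusted p = 0.000156). Of the 18 NF-kB targets 1 rose and 1 fell (median 0.01), and of the 16 immediate-early genes 5 rose and 1 fell (median 0.42). All 12 mast cell and basophil markers reached a mean of 1 FPKM in Perinatal BM, and 7 of 12 did in E16.5 FL. The part of the cells that express them in these differences was not tested.

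From Perinatal BM to 1w BM the 4 genes whose libraries did not overlap were all lower, against 32.7% of all genes tested in either direction. They were Ccl4 (-1.52), Ccr9 (-1.4), Ccl3 (-1.11) and Nlrp3 (-0.83). Without Perinatal BM replicate 3 the difference of Ccr9 was -0.97. The other chemokine genes that passed the test also fell, 3 ligands and 3 receptors, with 17.6% of all genes called. Ccr8 fell by 3.28 (limma adjusted p = 3.23e-10) and the macrophage chemokine Ccl6 fell by 0.93 (limma adjusted p = 0.00306). Of these 6 genes 3 were called without Perinatal BM replicate 3. No NF-kB target or immediate-early gene rose, while 5 of 18 and 7 of 16 fell. These counts were 3 without 1w BM replicate 1 or 3 for the NF-kB targets, and 4 without Perinatal BM replicate 3 or 1w BM replicate 1 and 3 without 1w BM replicate 3 for the immediate-early genes. Without the filter on low values 4 immediate-early genes fell.

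From 1w BM to 3w BM, 5 of the 8 genes did not overlap and all were higher at 3 weeks, against 34.7% of all genes tested in either direction and 17.4% higher. Ccl4 was higher by 3.14, Ccl3 by 1.78, Nlrp3 by 1.74, Cxcr4 by 1.39 and Cxcl2 by 0.95, while Ccl9, Ccr9 and Ccr2 differed by at most 0.08 in size. The count of other chemokine genes called was 5, all of which rose, with 10.4% of all genes called. Ccrl2 rose by 1.63 (limma adjusted p = 8.56e-05) and Pf4, the platelet ligand, by 1.52 (limma adjusted p = 0.0173). This count was 2 or 3 without 1w BM replicate 1 or 3 or any 1 of the 3w BM libraries.

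Stimulation-responsive genes also rose in this comparison. Of the NF-kB targets 11 of 18 rose and none fell (median 0.71, against 0 over all genes), among them the feedback inhibitor Tnfaip3, higher by 2.56 (limma adjusted p = 0.000559). The count was 6 without 1w BM replicate 1 or 3 and 7 without 3w BM replicate 1. Of the immediate-early genes 12 of 16 rose and none fell (median 1.4), led by Klf6, higher by 2.91 (limma adjusted p = 3.11e-07). Rgs1, which dampens signals from chemokine receptors, rose by 2.14 (limma adjusted p = 2.07e-05), from 223 ± 61.6 to 962 ± 17.5 FPKM. The immediate-early list summed to 2560 to 3520 FPKM in the 1w BM libraries and to 6880 to 9100 FPKM in 3w BM. The part of this list in the levels of Ccl3, Ccl4, Cxcl2 and Nlrp3 was not tested.

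From 3w BM to 4w BM, 4 of the 8 genes did not overlap and all 4 were lower, where 29.9% of all genes tested did not overlap in either direction. They were Nlrp3 (-1.88), Cxcr4 (-1.14), Ccr2 (-0.97) and Ccl3 (-0.39). Marker sums differed as well. Neutrophil markers summed to 3300 to 3600 FPKM in 3w BM and to 964, 2820 and 1040 FPKM in the 4w BM libraries. Monocyte and macrophage markers summed to 287 to 304 FPKM and to 94.7, 232 and 120 FPKM. HSPC marker sums overlapped, at 996 to 1090 and 1070 to 1220 FPKM. The part of these markers' cells in the differences was not tested. A single other chemokine gene was called, Cxcl12, which rose by 0.83 (limma adjusted p = 0.0208), with 9.28% of all genes called. None was called without 3w BM replicate 1 or 4w BM replicate 3, and 2 were without 4w BM replicate 2. Mefv, another inflammasome sensor, was lower, with a log2 difference of -1.07 (limma adjusted p = 0.000317), and Il18 rose by 0.93 (limma adjusted p = 0.0046). Of the NF-kB targets 3 fell, a count of 0 or 1 without replicate 1 of 4w BM, replicate 3 of 4w BM or any 1 of the 3w BM libraries, and of 0 without the filter on low values. Of the immediate-early genes 2 fell, a count of 0 or 1 without 3w BM replicate 1 or 3 or any 1 of the 4w BM libraries.

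From 4w BM to 6w BM, 5 of the 8 genes did not overlap, against 20.6% of all genes tested. Nlrp3 (2.56), Cxcl2 (1.52), Ccl3 (1.24) and Ccl4 (0.38) were higher and Ccr9 (-0.65) was lower. None of the other chemokine genes was called by limma, which called 3.94% of all genes, while 3 ligands and 1 receptor had an unadjusted p under 0.05. Without 4w BM replicate 2 limma called 2 of them, and without 6w BM replicate 1 it called 1. Of the NF-kB targets 5 rose (median 0.61), led by Nfkbia, the inhibitor of NF-kB, higher by 1.26 (limma adjusted p = 0.00456), and of the immediate-early genes 7 rose (median 1.09), led by Fosb, higher by 2.1 (limma adjusted p = 0.00023). Without 6w BM replicate 2, which had the highest immediate-early sum at 17800 FPKM, these counts were 1 and 3, and without 4w BM replicate 3 the NF-kB count was 3.

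From 6w BM to 8w BM, 5 of the 8 genes did not overlap, against 26.4% of all genes tested, with Ccr2 higher and the other 4 lower at 8 weeks. The differences were -3.37 for Cxcl2, -1.89 for Nlrp3, -1.46 for Ccl4, -1.02 for Ccl3 and 0.94 for Ccr2. Leaving out 8w BM replicate 3, which had the highest Ccl3, Ccl4, Cxcl2 and Nlrp3 of its group, these were -4.15, -2.6, -1.94, -1.25 and 0.88. Other chemokine genes called were 4, with 8.18% of all genes called, and this count was 2 without 6w BM replicate 2 or 8w BM replicate 1. Ccrl2 was lower, with a log2 difference of -1.44 (limma adjusted p = 0.000304), and Cxcl10 fell by 1.56 (limma adjusted p = 0.0157).

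Many stimulation-responsive genes fell between 6 and 8 weeks. Of the NF-kB targets 12 of 18 fell and none rose (median -1.1, against 0.01 over all genes), with Nfkbia lower by a log2 difference of -1.95 (limma adjusted p = 3.1e-05) and Tnf of -1.78 (limma adjusted p = 6.1e-05). Of the immediate-early genes 14 of 16 fell and none rose (median -1.29), a count of 5 without 6w BM replicate 2 and 7 without 8w BM replicate 2. The NF-kB list summed to 1350, 1910 and 1070 FPKM in the 6w BM libraries and to 466, 389 and 724 FPKM in 8w BM. Its highest 8w BM value was in replicate 3, as for Cxcl2 and Nlrp3. The part of these lists in the levels of Cxcl2, Nlrp3, Ccl4 and Ccl3 was not tested.

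**Figure D3:**
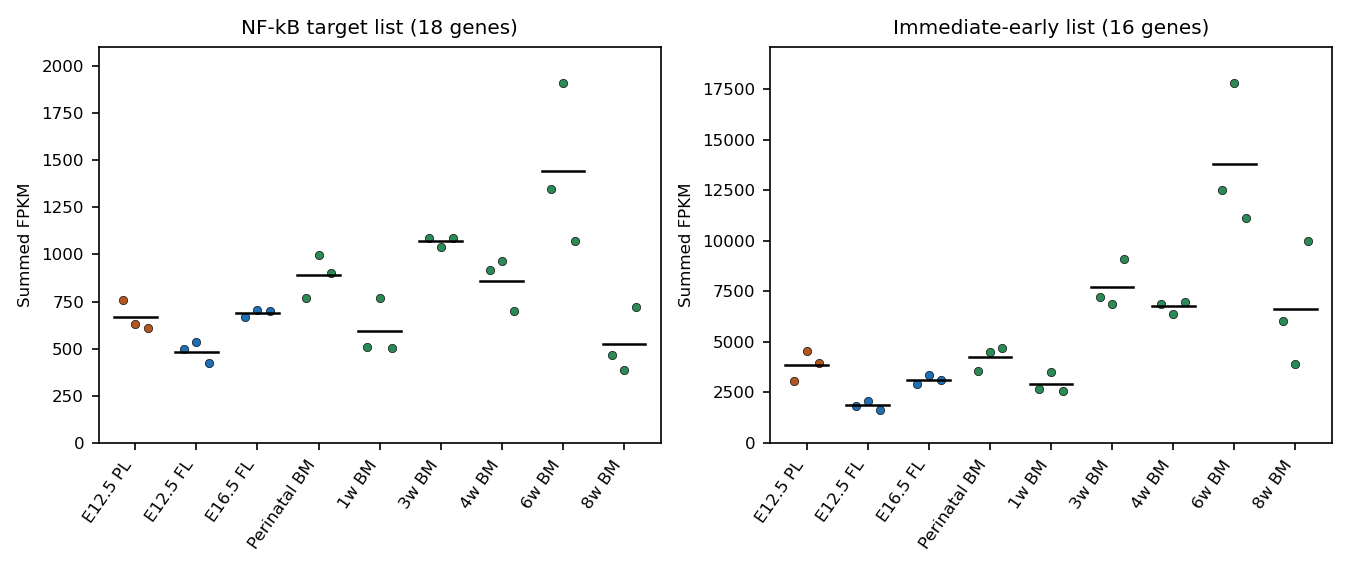
Summed FPKM (y axes, linear, from 0) of 18 NF-kB targets and 16 immediate-early genes in the 9 groups (x axes), with the 3 libraries as points and their mean as a bar, coloured as E12.5 PL (orange), fetal liver (blue) and bone marrow (green). Both lists are highest in 6w BM replicate 2, at 1910 and 17800 FPKM, and in 8w BM replicate 3 lies above the other 2 libraries.

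The oldest marrow group, 8w BM, was also compared with E16.5 FL, the later of the fetal liver groups. Libraries of 6 of the 8 genes did not overlap, against 52.3% of all genes tested. Ccl9 (1.39), Ccr2 (1.31) and Cxcr4 (1.07) were higher in 8w BM, and Ccr9 (-2.86), Ccl4 (-1.7) and Ccl3 (-0.91) were lower. Cxcl2 (-1.37) and Nlrp3 (0.6) overlapped, and without 8w BM replicate 3 their differences were -2.15 and -0.11. Of the other chemokine genes 5 rose and 4 fell, with 40.2% of all genes called, and 5 were called without 8w BM replicate 3. Pf4 rose by 3.95 (limma adjusted p = 5.4e-08), from 3.78 ± 1.27 to 71 ± 5.24 FPKM, and Cxcr3, the receptor of Cxcl10, was lower, with a log2 difference of -1.51 (limma adjusted p = 0.000759). Of the inflammasome and interleukin-1 genes 9 rose and 1 fell. Casp1 rose by 1.73 (limma adjusted p = 2.73e-08), from 6.56 ± 1.44 to 23.7 ± 0.171 FPKM, and Il1r1 by 2.02 (limma adjusted p = 4.82e-10). Of the NF-kB targets 4 rose and 6 fell (median -0.39), and of the immediate-early genes 8 rose and none fell (median 0.8). Marker sums of other cell types also differed. The 12 monocyte and macrophage markers summed to 345 to 425 FPKM in 8w BM and 77.2 to 126 FPKM in E16.5 FL, and 12 neutrophil markers to 2590 to 3070 and 953 to 1970 FPKM, with 8 and 11 of them at a mean of 1 FPKM or more. The 10 megakaryocyte markers, of which Pf4 is one, summed to 213 to 220 FPKM in 8w BM and 122 to 137 FPKM in E16.5 FL, with 9 and 7 at 1 FPKM or more. No neutrophil or megakaryocyte marker was at 0 in all 3 libraries of either group. The part of these markers' cells in the differences was not tested. Il1b, a main product of the Nlrp3 inflammasome, had group means of at most 1.13 FPKM in all 9 groups.

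**Figure D4:**
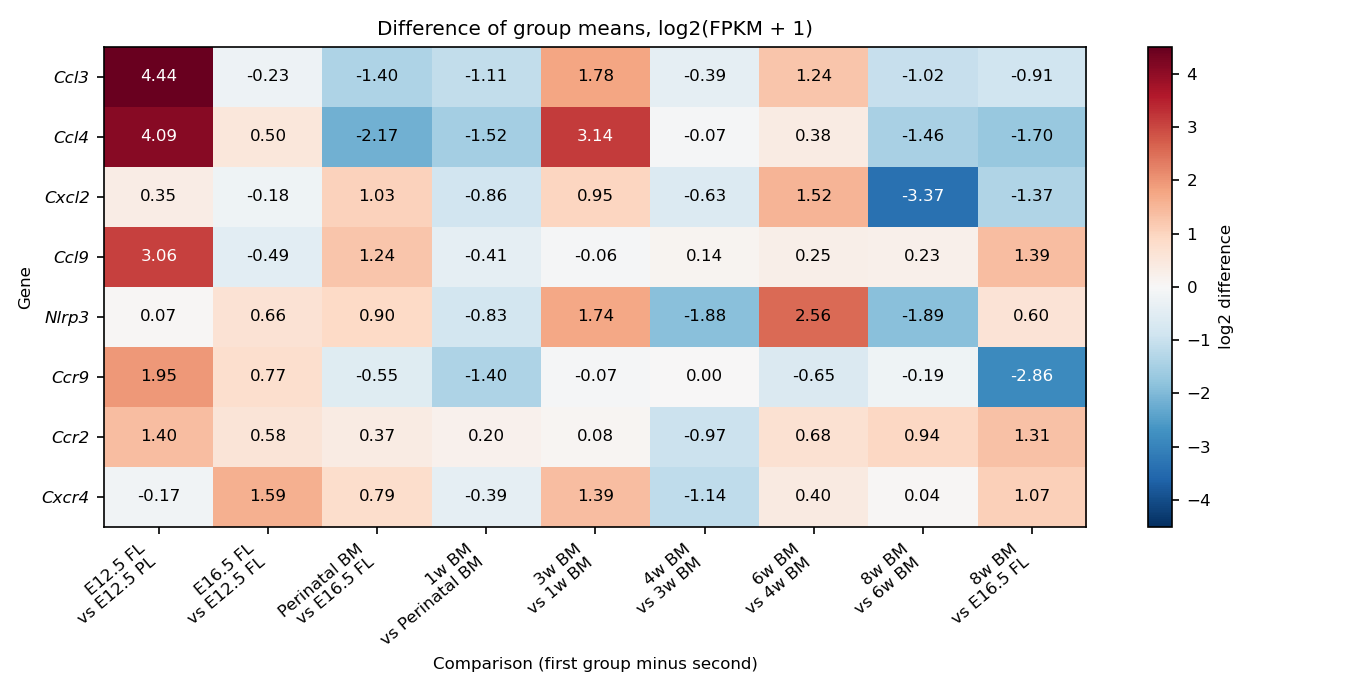
Difference of group means on the log2(FPKM + 1) scale (colour and printed value, first group minus second) for the 8 genes (rows) in the 9 comparisons (columns). Ccl3 and Ccl4 have their largest values in E12.5 FL vs E12.5 PL, at 4.44 and 4.09, Cxcl2 in 8w BM vs 6w BM, at -3.37, and Ccr9 in 8w BM vs E16.5 FL, at -2.86. Neighbouring columns share the libraries of a group.

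The levels of the 8 genes varied together in pairs across the 24 libraries outside E12.5 PL, given as a description over libraries that share groups. Cxcl2 and Nlrp3 correlated at r = 0.65, and at r = 0.69 over 27 libraries once group means were removed. Within groups Ccl4 also correlated with Cxcl2 (r = 0.57) and Nlrp3 (r = 0.56), and Ccl3 with Cxcl2 (r = 0.52), against r = 0.29, 0.22 and 0.2 across the 24 libraries. The 8w BM libraries weigh heavily in the within-group values of these pairs and of Cxcl2 with Nlrp3. There replicate 3 was the highest in all 4 genes, with Ccl4 at 41.1, 38.6 and 108 FPKM and Nlrp3 at 1.63, 1.13 and 9.35 FPKM. The values were not computed without that group. Ccl9 and Ccr2 correlated at r = 0.63 and within groups at 0.76, and Ccl9 and Ccr9 at r = -0.68 and within groups at -0.47. For Nlrp3 and Cxcr4, r was 0.67 across libraries and 0.17 within groups, so most of that likeness lay between groups.

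The genes whose log2(FPKM + 1) was most like that of each of the 8 over the 24 libraries were read from all genes tested. For Cxcl2 the 5 genes were Nfkbid (r = 0.87), Nfkbia (r = 0.86), Dusp2 (r = 0.84), Psd (r = 0.84) and Jmjd6 (r = 0.8). Nfkbid and Nfkbia are inhibitors of the NF-kB family and Dusp2 is a phosphatase of MAP kinases. For Nlrp3 they were Skil (r = 0.91), Hcar2 (r = 0.91), Plk3 (r = 0.9), Zfp622 (r = 0.88) and Grasp (r = 0.88). For Ccl3 they were Zfand5 (r = 0.85), Snrnp48 (r = 0.84), Pdcd7 (r = 0.83), Uhrf2 (r = 0.82) and Luc7l (r = 0.82), and for Ccl4 Abt1 (r = 0.87), Zfand5 (r = 0.87), Hist3h2a (r = 0.86), Klf6 (r = 0.86) and Pnn (r = 0.85). Zfand5 thus stood in the lists of both neighbours. Ccr2 was most like Apba1 (r = 0.91), F13a1 (r = 0.9), Abcb10 (r = 0.87), Irf8 (r = 0.86) and Prss50 (r = 0.85). Of these, F13a1 and Irf8 are known from monocytes and their precursors. Ccr9 was most like Lsp1 (r = 0.96), Ap2a2 (r = 0.95), Hif3a (r = 0.94), Crispld2 (r = 0.94) and Itga9 (r = 0.94). For Ccl9 the genes were Tspo (r = 0.88), Fes (r = 0.88), Lhfpl2 (r = 0.88), Gp1bb (r = 0.87) and Ttyh2 (r = 0.87), with Gp1bb known from platelets and megakaryocytes. For Cxcr4 they were Ero1lb (r = 0.92), Serinc3 (r = 0.91), B3gnt2 (r = 0.91), Esyt1 (r = 0.91) and Oasl1 (r = 0.91). Some of these values did not hold over all 27 libraries, with E12.5 PL included. There Zfand5 correlated at r = 0.24 with Ccl3 and 0.38 with Ccl4, and Gp1bb at r = -0.53 with Ccl9. Others stayed high, such as Fes with Ccl9 (r = 0.94) and F13a1 with Ccr2 (r = 0.96).

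**Figure D5:**
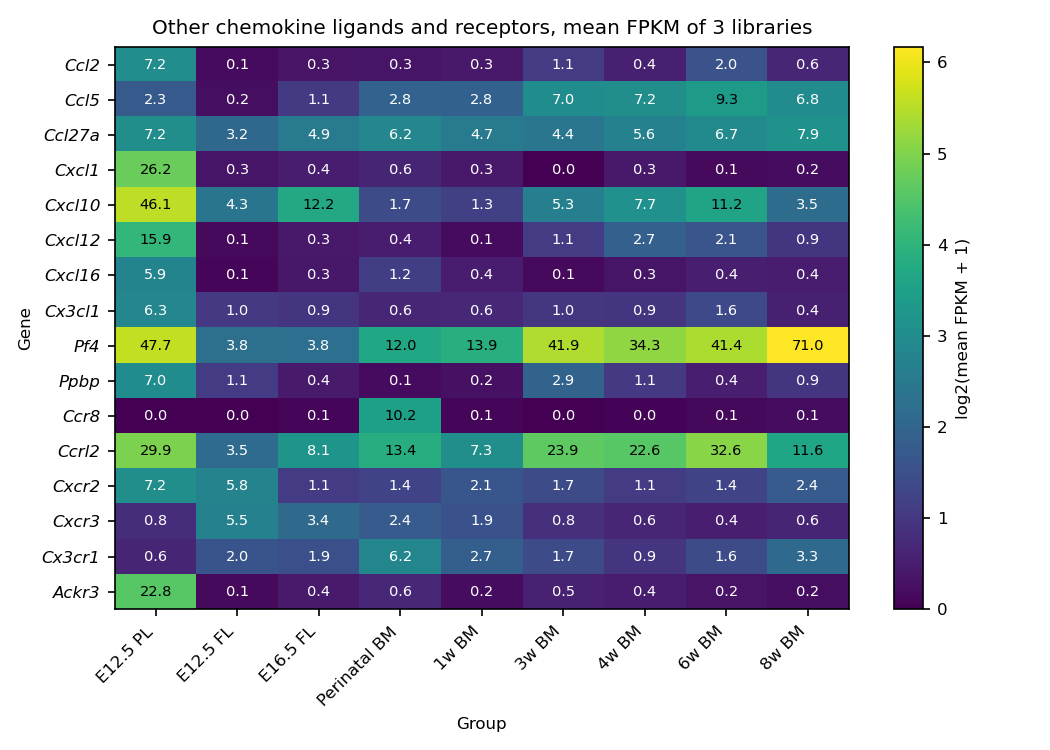
Mean FPKM of 3 libraries (printed) and log2(mean FPKM + 1) (colour) of the other ligands and receptors that reach a mean of 5 FPKM in at least 1 group (rows) in the 9 groups (columns). Cxcl1, Cxcl12 and Ackr3 are high in E12.5 PL, Ccr8 reaches 10.2 FPKM in Perinatal BM, and Pf4 is highest in 8w BM at 71 FPKM.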

How the data were processed

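Tri Pure reagent served to extract HSPC RNA, which was sequenced after an Illumina TruSeq RNA preparation, per the labels' protocols. Trim Galore, FastQC, STAR 2.7, HTSeq 0.6.1p1 and GRCm38 are named in the submitters' processing notes. The authors deposited FPKM, used here as they stand, while how FPKM was computed, with which annotation and strand setting, is not given in the sources used here. Total depth is unknown, and a 0 carries no floor. Titles in the labels put 27 libraries in 9 groups of 3, and the table has 24418 entries.

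The 8 genes, and all lists of other genes, were chosen with earlier results of these data known. The 8 are described by library, mean ± SD, order and overlap. Other genes were fitted in limma 3.58.1 (R 4.3.3) on log2(FPKM + 1), with a mean per group over 27 libraries, 18 residual degrees of freedom, eBayes with a trend and Benjamini-Hochberg adjustment over 13349 genes (at least 1 FPKM in at least 3 libraries) at 0.05. The calling was tested on simulated data. Named were up to 4 genes per list, direction and comparison with the smallest adjusted p and a mean of at least 1 FPKM, ligands and receptors with a mean of at least 5 FPKM in a group, and the genes most like each member. Partners of the members, Il1b and the genes of the closing observations were chosen after their values were seen.

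Replicate numbers did not pair the libraries: residuals of same-numbered libraries correlated at -0.21 to 0.23, and 8 of 27 were closest to their own number. The settings tried were a pseudocount of 0.1, removing the filter or raising it to 5 FPKM, median-of-ratios scaling (factors 0.991 to 1.019), only the 6 libraries compared, a replicate block and leaving out each library. A fit without E12.5 PL, and all settings for the lists other than ligands and receptors, were chosen after seeing the data. Python 3.11.15, pandas 2.3.3, numpy 2.4.6 and matplotlib 3.10.9 served for the description, motifs and figures.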

Additional observations from a re-analysis of the deposited data

How the results depend on the processing

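The 72 differences of the 8 genes were recomputed under a pseudocount of 0.1, another scaling and without each library, which gave 576 values. Of these, 8 moved by more than the spread between replicates, all with the pseudocount of 0.1, and 15 had the opposite sign, all without 1 library and all for genes whose libraries overlapped. The largest of the 15 in the main analysis was Nlrp3 in 8w BM vs E16.5 FL, at 0.6, and -0.11 without 8w BM replicate 3, and the others were at most 0.2 in size. Counts of other chemokine genes called moved by over 1.5 times under several settings. Leaving out 1 library did so in every comparison but E16.5 FL vs E12.5 FL, so these counts are not stable. The cause was not tested, beyond the smaller number of genes under the filter at 5 FPKM. With that filter the counts were 9 in E12.5 FL vs E12.5 PL (20 in the main analysis), 5 in Perinatal BM vs E16.5 FL (8), 2 in 1w BM vs Perinatal BM (6) and 4 in 8w BM vs E16.5 FL (9). With a pseudocount of 0.1 they were 5 in E16.5 FL vs E12.5 FL (3) and 0 in 4w BM vs 3w BM (1). With only the 6 libraries compared they were 6 in E16.5 FL vs E12.5 FL, 3 in 1w BM vs Perinatal BM and 2 in 8w BM vs 6w BM (4). With the replicate block, and in the fit without the E12.5 PL libraries, 1 gene was called in 6w BM vs 4w BM (0), and the block moved no other count by over 1.5 times. Leaving out each library gave 13 to 20 genes in E12.5 FL vs E12.5 PL, 2 to 4 in E16.5 FL vs E12.5 FL, 5 to 8 in Perinatal BM vs E16.5 FL, 3 to 6 in 1w BM vs Perinatal BM, 2 to 4 in 3w BM vs 1w BM, 0 to 2 in 4w BM vs 3w BM, 0 to 2 in 6w BM vs 4w BM, 2 to 5 in 8w BM vs 6w BM and 5 to 9 in 8w BM vs E16.5 FL. For the other lists, the filter at 5 FPKM gave 3 inflammasome and interleukin-1 genes called in Perinatal BM vs E16.5 FL (7), 2 in 1w BM vs Perinatal BM (5), 2 in 4w BM vs 3w BM (4) and 0 in 6w BM vs 4w BM (1). Without a filter 0 NF-kB targets were called in 4w BM vs 3w BM (3) and 4 immediate-early genes in 1w BM vs Perinatal BM (7). With 3 libraries per group and no counts, differences of genes under about 1 FPKM are the least certain.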

Other observations

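Ccl5, a ligand made by T cells and platelets, was at 0.166 ± 0.144 FPKM in E12.5 FL, 1.07 ± 1.55 FPKM in E16.5 FL, 2.81 ± 0.405 FPKM in Perinatal BM, 7 ± 0.781 FPKM in 3w BM and 6.82 ± 1.51 FPKM in 8w BM (SD, n = 3). It rose by 2.15 on the log2(FPKM + 1) scale from E16.5 FL to 8w BM (limma adjusted p = 0.000337), while Perinatal BM vs E16.5 FL did not pass the test (log2 difference 1.12, limma adjusted p = 0.0526). Ccr3, the receptor of the eotaxins, was at most 0.161 FPKM in every library up to 1w BM and at 2.9, 2.78 and 1.43 FPKM in 8w BM, and it rose by 1.04 from 6w BM to 8w BM (limma adjusted p = 4.94e-05). Cx3cr1, a receptor of monocytes and their precursors, was highest in Perinatal BM, at 5.05, 3.81 and 9.64 FPKM, and rose by 1.25 against E16.5 FL (limma adjusted p = 0.000223), but was at 0.938 ± 0.701 FPKM in 4w BM, against 1.86 ± 0.192 FPKM in E16.5 FL.

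The 3 Perinatal BM libraries differed among themselves in several of these genes at once. Replicate 3 had the highest Ccr9 (13 FPKM), Ccr8 (16.4 FPKM), Cx3cr1 (9.64 FPKM) and Cxcr3 (4.91 FPKM) of the group, the highest sum of plasmacytoid and dendritic cell markers (405 FPKM, against 314 and 327 FPKM) and of mast cell and basophil markers (4150 FPKM, against 3300 and 1550 FPKM). Its sum of B cell markers was also the highest (75 FPKM, against 31.2 and 26.1 FPKM). It had the lowest Ccl9 (36.7 FPKM) and Ccr2 (4.99 FPKM). Its sums of neutrophil (1470 FPKM, against 3130 and 3110 FPKM), monocyte and macrophage (115, against 208 and 216) and eosinophil markers (39.6, against 220 and 178) were the lowest. Replicate 2 had the highest Cxcl2, at 93.9 FPKM, and the highest Nfkbia, at 286 FPKM. What sets these libraries apart was not tested.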
